A study of Drosophila melanogaster with 4 samples.

Results

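Proteasome subunit genes were examined for peaks of the nuclear receptor Eip78C in Drosophila melanogaster. Members were the protein-coding genes of the Ensembl annotation whose symbol begins with Rpn, Rpt, Prosalpha or Prosbeta followed by a digit. The rule gave 48 of 13968 protein-coding genes. Of these, 32 were general subunits, with 7 Prosalpha, 7 Prosbeta, 6 Rpt and 12 Rpn genes. The other 16 were paralogues whose symbol carries a T or R suffix.

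Chromatin immunoprecipitation and sequencing (ChIP-seq) had been done with an anti-GFP antibody on 4 biological replicates, which form 1 group. All came from the transgenic strain Eip78C-GFP, which stably expresses Eip78C with GFP at its C-terminus. Whole white prepupae were used, with males and females pooled. What drives the transgene is not given in the sources used here, and no sample without the tag was analysed here. In whole animals, strong binding in few cells and weak binding in many cannot be told apart.

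The proteasome degrades proteins that carry ubiquitin chains. Its core particle is a stack of rings in which alpha subunits form the gate and beta subunits hold the protease sites. The regulatory particle that caps it has a ring of Rpt ATPases, which unfold the substrate, and Rpn subunits, which include scaffold proteins, ubiquitin receptors and the lid that removes the ubiquitin chain. In flies, the T-suffix copies are known as testis-type subunits.

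Peaks at general subunits were found at Rpn genes and not at core or ATPase genes in the optimal set, which is the authors' joint list thresholded by irreproducible discovery rate. A gene was counted when the summit of an optimal peak lay within 1 kb of a transcription start site. This held for 6 of 48 members (12.5%, exact 95% interval 4.73% to 25.2%), beside 22.0% of all protein-coding genes. All 6 were general subunits, namely Rpn3, Rpn5, Rpn9, Rpn11, Rpn12 and Rpn13, or 6 of 32 (18.8%, interval 7.21% to 36.4%). Within the Rpn genes the share was 6 of 12 (interval 21.1% to 78.9%), against 0 of 7 alpha, 0 of 7 beta and 0 of 6 Rpt genes. A count of 0 allows up to 42.9% in either ring and up to 3 of 6 Rpt genes. None of the 16 paralogues had such a summit, which allows up to 18.8%. The intervals of the all-member, general and Rpn shares each include the share of all genes, so none of the 3 differed from it beyond counting error. The exact interval of the paralogues, 0 to 20.6%, ended below the 22.0% of all genes, and that difference was not tested. However, 14 of the 16 paralogues had 1 annotated start site. Of all genes with 1 start site 15.3% had such a summit, a share inside that interval. No test of the difference between modules was made, because the members were chosen with results of these data known.

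The DNA at the summits of Rpn5, Rpn3, Rpn11 and Rpn12 is printed because several windows held the site of the promoter factor DREF or the shorter motif inside it. The windows of Rpn9 and Rpn13 are not printed. Each run is read 5′ to 3′ on the strand of the member gene, on dm6, from RefSeq's copy of that genome. Capitals mark CGATA or its reverse complement TATCG, so that a full TATCGATA appears as 1 block of 8 capitals. Windows reach 100 bases to each side of the summit but stop at annotated UTRs. They lie at chr3R:5789216-5789328 (plus strand) for Rpn5, chr2L:19051693-19051789 (plus) for Rpn3 and chr3L:16582798-16582998 (plus) for Rpn12. Both Rpn11 windows are on the minus strand, the one nearer to the gene at chr2L:5059807-5060007 and the farther one at chr2L:5060006-5060206. The Rpn3 run ends just before the start site, so its summit is not in it.
Rpn5: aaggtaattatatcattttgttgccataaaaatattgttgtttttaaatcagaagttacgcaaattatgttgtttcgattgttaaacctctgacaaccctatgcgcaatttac
Rpn3: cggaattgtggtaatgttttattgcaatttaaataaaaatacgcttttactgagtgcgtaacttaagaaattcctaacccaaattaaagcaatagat
Rpn11, nearer summit: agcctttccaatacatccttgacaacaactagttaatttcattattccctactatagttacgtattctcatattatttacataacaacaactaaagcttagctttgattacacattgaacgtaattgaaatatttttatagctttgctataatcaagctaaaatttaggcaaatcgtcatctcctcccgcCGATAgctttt
Rpn11, farther summit: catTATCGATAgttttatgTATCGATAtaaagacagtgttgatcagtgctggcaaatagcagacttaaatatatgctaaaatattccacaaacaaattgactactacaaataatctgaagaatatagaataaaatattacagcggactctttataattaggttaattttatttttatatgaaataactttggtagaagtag
Rpn12: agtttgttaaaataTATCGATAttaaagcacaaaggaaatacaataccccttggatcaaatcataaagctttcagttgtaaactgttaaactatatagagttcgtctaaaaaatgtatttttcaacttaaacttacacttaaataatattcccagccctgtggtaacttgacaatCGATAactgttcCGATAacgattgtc

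The windows of Rpn5 and Rpn3 held no capitals in the part printed. The full 200 bp window of Rpn3 did hold a TATCGATA, in the part not printed, so its run does not show a window without the site. The farther Rpn11 window held 2 full sites and the Rpn12 window 1.

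The second set shows that the same site also stood before start sites without an optimal summit. It gives up to 150 bases before the start of Prosalpha6 (chr2L:10221217-10221350, plus strand), Prosbeta2 (chr3L:14999801-14999950, plus) and Prosbeta6 (chr3L:16610419-16610568, minus). The paralogue Prosalpha6T (chr2L:13231889-13232038, plus) is set beside its general counterpart Prosalpha6.
Prosalpha6: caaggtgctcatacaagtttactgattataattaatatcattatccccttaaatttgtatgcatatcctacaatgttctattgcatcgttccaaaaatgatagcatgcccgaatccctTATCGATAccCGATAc
Prosbeta2: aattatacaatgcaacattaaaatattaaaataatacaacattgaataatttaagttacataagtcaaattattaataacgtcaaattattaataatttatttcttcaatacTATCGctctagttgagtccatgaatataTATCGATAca
Prosbeta6: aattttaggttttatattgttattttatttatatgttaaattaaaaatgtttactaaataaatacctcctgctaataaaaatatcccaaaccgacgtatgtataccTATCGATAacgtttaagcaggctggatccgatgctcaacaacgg
Prosalpha6T: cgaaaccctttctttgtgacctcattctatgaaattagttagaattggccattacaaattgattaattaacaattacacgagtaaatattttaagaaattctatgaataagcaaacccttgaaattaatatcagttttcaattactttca

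Prosalpha6, Prosbeta2 and Prosbeta6 each carried 1 full site, whereas the Prosalpha6T run carried neither the full site nor the shorter CGATA.

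Ranks describe peak strength below. Each peak has a score that the authors made, whose scale no source used here states, and rank 1 is the highest score in a list. The optimal set held 8282 peaks, the 4 replicate lists and the pooled list held 30000 each, and the optimal peaks equalled the 8282 highest-scoring pooled peaks. Replicate lists include background, so the 8282 strongest peaks of each replicate were taken as its strong set. No list gives read counts, so the depth behind each is unknown.

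Rpn5 and Rpn3, which encode structural subunits of the lid, had the strongest peaks. At Rpn5 (FBgn0028690) the peak covered chr3R:5789013-5789538, ranked 996 with a score of 533, and had its summit at 5789316, 177 bp upstream of the start site (negative distances below are upstream). Its ranks in replicates 1 to 4 were 1771, 818, 1610 and 643 (mean 1210 ± 563, SD, n = 4). Rpn5 was strong in every replicate, and replicates 4 and 2 ranked it highest. That summit lay in an intron of Hat1, a histone acetyltransferase gene that starts 109 bp away on the other strand, and was 68 bp inside it, so the nearest start site was that of Hat1 and not of Rpn5. At Rpn3 (FBgn0261396) the peak covered chr2L:19051688-19051938, ranked 1957 with a score of 344, and its summit at 19051793 lay 3 bp past the start site in the 5′ UTR. Rpn3 ranked 3094, 1682 and 1440 in replicates 1, 3 and 4 and had no summit in replicate 2. The summits of those replicates, at 29, 4 and -17 bp, stayed close to the Rpn3 start, and l(2)37Bb started 178 bp away on the other strand.

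Rpn11, the metalloprotease that cuts ubiquitin chains from substrates, had a pair of optimal summits. The stronger one (FBgn0028694; chr2L:5059692-5060121) ranked 4910 with a score of 166 and had its summit 117 bp upstream, between genes. A second peak ranked 6861 with a score of 121, with its summit at -316 bp. In replicates 1, 3 and 4 the strongest Rpn11 summit ranked 3453, 8014 and 5841, at -145, -137 and -113 bp, and replicate 2 had none. Like Rpn3, this gene was strong in each replicate but one and not listed at all in that one. Both Rpn11 summits were nearer to Rpn11 than to qtc, from whose start they lay at -908 and -709 bp.

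Rpn12 and Rpn9, also structural subunits of the lid, had weaker peaks. The Rpn12 peak (FBgn0028693; chr3L:16582683-16583112) ranked 6702 with a score of 124, and its summit lay 130 bp upstream. Its replicate ranks were 6043, 7627, 12282 and 7795 (mean 8437 ± 2682, SD, n = 4), so replicate 3 fell outside the strong set. Among the 6 members Rpn12 was the one with no other protein-coding start within 1 kb of its summit. The 4 replicate summits lay at -116, -147, -130 and -111 bp, a span of less than the width of the peak. The Rpn9 peak (FBgn0028691) ranked 7052 with a score of 118, and its summit lay 219 bp downstream of the start in an intron of Rpn9. Rpn9 ranked 9408, 9811, 8030 and 7332 (mean 8645 ± 1161, SD, n = 4), so only replicates 3 and 4 placed it in the strong set. The strongest summit of replicate 3, at 23733113, lay inside the optimal peak, which covered chr3R:23733028-23733457 with its summit at 23733243. Its distance, -102 bp, was taken from another annotated Rpn9 start. A second summit of replicate 3, at 23733317 and rank 10299, also lay inside that peak.

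Rpn13, a ubiquitin receptor that binds the deubiquitinase Uch-L5 and is not part of the lid, had a peak that was narrow in the optimal set. It covered chr2R:13960346-13960483 (FBgn0033886), ranked 3514 with a score of 223, and its summit lay 31 bp upstream, between genes. Rpn13 ranked 3801, 5002, 8714 and 2601 (mean 5030 ± 2645, SD, n = 4), with replicate 3 just outside the strong set. In width the optimal peak was 138 bp, beside a median of 430 bp over the 6 members. The strongest Rpn13 peaks of replicates 1 to 4 were all wider. They covered 13960242-13960657, 13960336-13960715, 13960230-13960629 and 13960240-13960629, so no replicate showed the narrow width. CtsL1, a cathepsin gene, began 271 bp from the Rpn13 start on the other strand. With the lid taken as Rpn3, Rpn5, Rpn6, Rpn7, Rpn8, Rpn9, Rpn11 and Rpn12, a grouping made after the values were seen, 5 of 8 lid genes (interval 24.5% to 91.5%) and 1 of the 4 other Rpn genes (0.631% to 80.6%) had an optimal summit, beside 22.0% of all genes. Those intervals are wide and overlap, and the difference between the lid and the other Rpn genes was not tested. The lid interval lay above the 22.0% of all genes. Because the grouping was made after the values were seen, no conclusion is drawn from that.

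**Figure D1:**
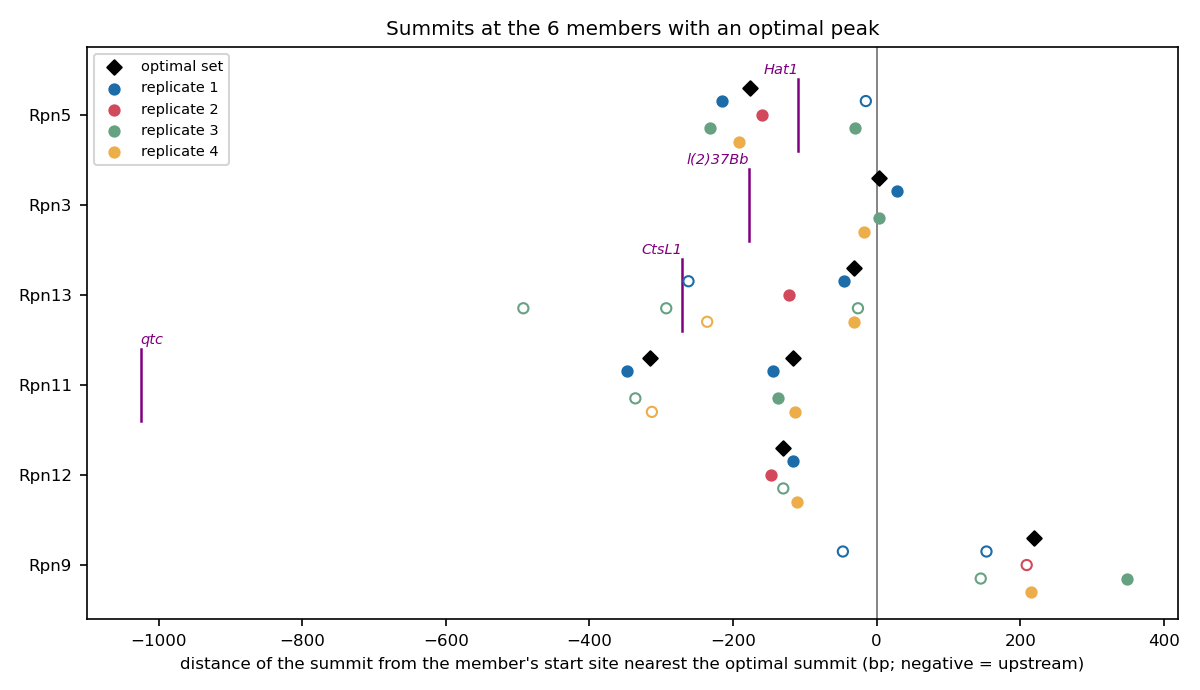
Summit positions at the 6 members with an optimal peak, as distance in bp from the member's start site nearest the optimal summit. Diamonds are optimal summits and circles those of each replicate, filled when among the 8282 strongest peaks of the list, and purple bars mark the start of a neighbouring gene that begins upstream. Replicate 2 has no circle at Rpn3 and Rpn11, and the optimal summit of Rpn5 lies nearer to Hat1 than to its own start.

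The 6 summits were compared with the strongest summit of each of the 3078 genes that had one. Members' summits had a median rank of 4212, beside 3113.5 over those genes, and a median position 74 bp upstream, beside 153 bp. Upstream of the start lay 4 of 6, beside 78.0%. Another protein-coding start lay within 1 kb of 5 of 6 summits, beside 49.4% over all genes with one. Nearest to the member's own start were 4 of 6, beside 75.8%. Crowded promoters therefore limit what can be assigned to the members, and Rpn11, Rpn12, Rpn3 and Rpn13 are the ones whose summit is closest to their own start.

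Promoter layout was then set beside the counts, since a gene with more starts or a close neighbour has more ways to be counted. Head-to-head genes, which start within 1 kb upstream on the other strand, made up 22 of 48 members and 33.3% of all genes. Of the 22, 3 had an optimal summit (all 3 among 19 general subunits), where 29.7% of all head-to-head genes did. Of the 26 without such a partner, 3 had an optimal summit (3 of 13 general subunits and 0 of 13 paralogues), where 18.2% of such genes did. A single start site was annotated for 36 members, and 3 of them had an optimal summit (3 of 22 general subunits and 0 of 14 paralogues), beside 15.3% of all genes with 1 start. Among general subunits, the counts thus lay on both sides of these shares, and each rests on 3 genes.

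Other Rpn genes had summits that stayed below the optimal set. Rpn2, a scaffold protein of the base, ranked 9410 in the pooled list, at -195 bp, and 16814, 10223 and 7146 in replicates 1, 3 and 4. Rpn8, the inactive partner of Rpn11, had no pooled summit but ranked 5850, 11759 and 4233 in those replicates. Rpn10, a ubiquitin receptor, ranked 8253 in replicate 1 and 10455 in replicate 4, with no pooled summit. None of these was listed in replicate 2. The lid genes Rpn6 and Rpn7 and the scaffold gene Rpn1 also had no pooled summit. Rpn6 ranked 6244 and Rpn1 ranked 20999 in replicate 1 alone, and Rpn7 ranked 23807, 11685 and 10483 in replicates 1, 3 and 4. So each of the 12 general Rpn genes had a summit in the whole list of replicate 1, where 48.9% of all genes had one, and 4 of them in that of replicate 2, where 40.3% did.

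Rpt genes, the ATPases, had no pooled summit. Rpt5 came nearest to a strong peak, with rank 6329 in replicate 2 and 3633 in replicate 4, at 16 and -20 bp, and nothing in the other replicates. Rpt3 ranked 9225, 29520 and 7178 in replicates 1, 3 and 4. Both were thus in the strong set of replicate 4, and only Rpt5 was strong in another replicate. Rpt6 ranked 12413 and 15409 in replicates 1 and 3, Rpt2 ranked 24446 in replicate 1 and Rpt4 ranked 13188 in replicate 4. Rpt1 was in no list.

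Alpha genes, which form the gate of the core, were led by Prosalpha2. It ranked 6849, 6141 and 5189 in replicates 1, 3 and 4, at -140, -113 and -146 bp, and was absent from replicate 2 and from the pooled list. Prosalpha2 was the one core gene in the strong set of 3 replicates. Prosalpha4 was listed in every replicate, at ranks 26867, 14747, 13694 and 23080 (mean 19597 ± 6412, SD, n = 4), and ranked 14182 in the pooled list. All 5 ranks lie outside the strong set. Prosalpha5 ranked 24642 in the pooled list and 18318, 18247 and 16312 in replicates 1, 3 and 4. Without a pooled summit were Prosalpha3 (21142, 9277 and 8363 in replicates 2 to 4) and Prosalpha6 (7266 and 13389 in replicates 1 and 4). Prosalpha1 and Prosalpha7 were in no list.

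No beta gene was in the strong set of any replicate. Prosbeta1, which carries the caspase-like protease site, ranked 18220 in the pooled list and 13889 and 11447 in replicates 1 and 4. Prosbeta2, with the trypsin-like site, ranked 19213 and 16330 in those replicates. Prosbeta5, with the chymotrypsin-like site, ranked 23586 in replicate 1 and 14009 in replicate 3. The catalytic subunits were therefore listed in 2 replicates each, always outside the strong set. Of the structural beta genes, Prosbeta3 ranked 10930, 16293 and 13993 in replicates 1, 3 and 4, Prosbeta6 and Prosbeta7 ranked 24745 and 22057 in replicate 1 alone, and Prosbeta4 was in no list. Apart from Prosbeta1, none of the 7 had a pooled summit.

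The 16 paralogues had no optimal or pooled summit. In replicate 2, Prosbeta2R1 ranked 24240 and Rpt6R ranked 17914, and in replicate 4, Prosbeta4R2 ranked 23341 and Prosbeta5R2 ranked 25006. Each was seen in 1 replicate and low in its list. In no list were Prosalpha1R, Prosalpha3T, Prosalpha4T1, Prosalpha4T2, Prosalpha6T, Prosbeta2R2, Prosbeta4R1, Prosbeta5R1, Rpn12R, Rpn13R, Rpt3R and Rpt4R. With Prosalpha1, Prosalpha7, Prosbeta4 and Rpt1 these made 16 of 48 members in no list, beside 34.5% of all genes. That total joins 12 of 16 paralogues, above the share of all genes, and 4 of 32 general subunits, below it. Paralogues also lay farther from any optimal summit, at a median of 19347.5 bp, against 5304.5 bp for general subunits and 6692 bp for all genes. They had a similar median gene length, 1282 bp against 1390 bp for general subunits, and both were shorter than the 2164 bp of all genes.

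**Figure D2:**
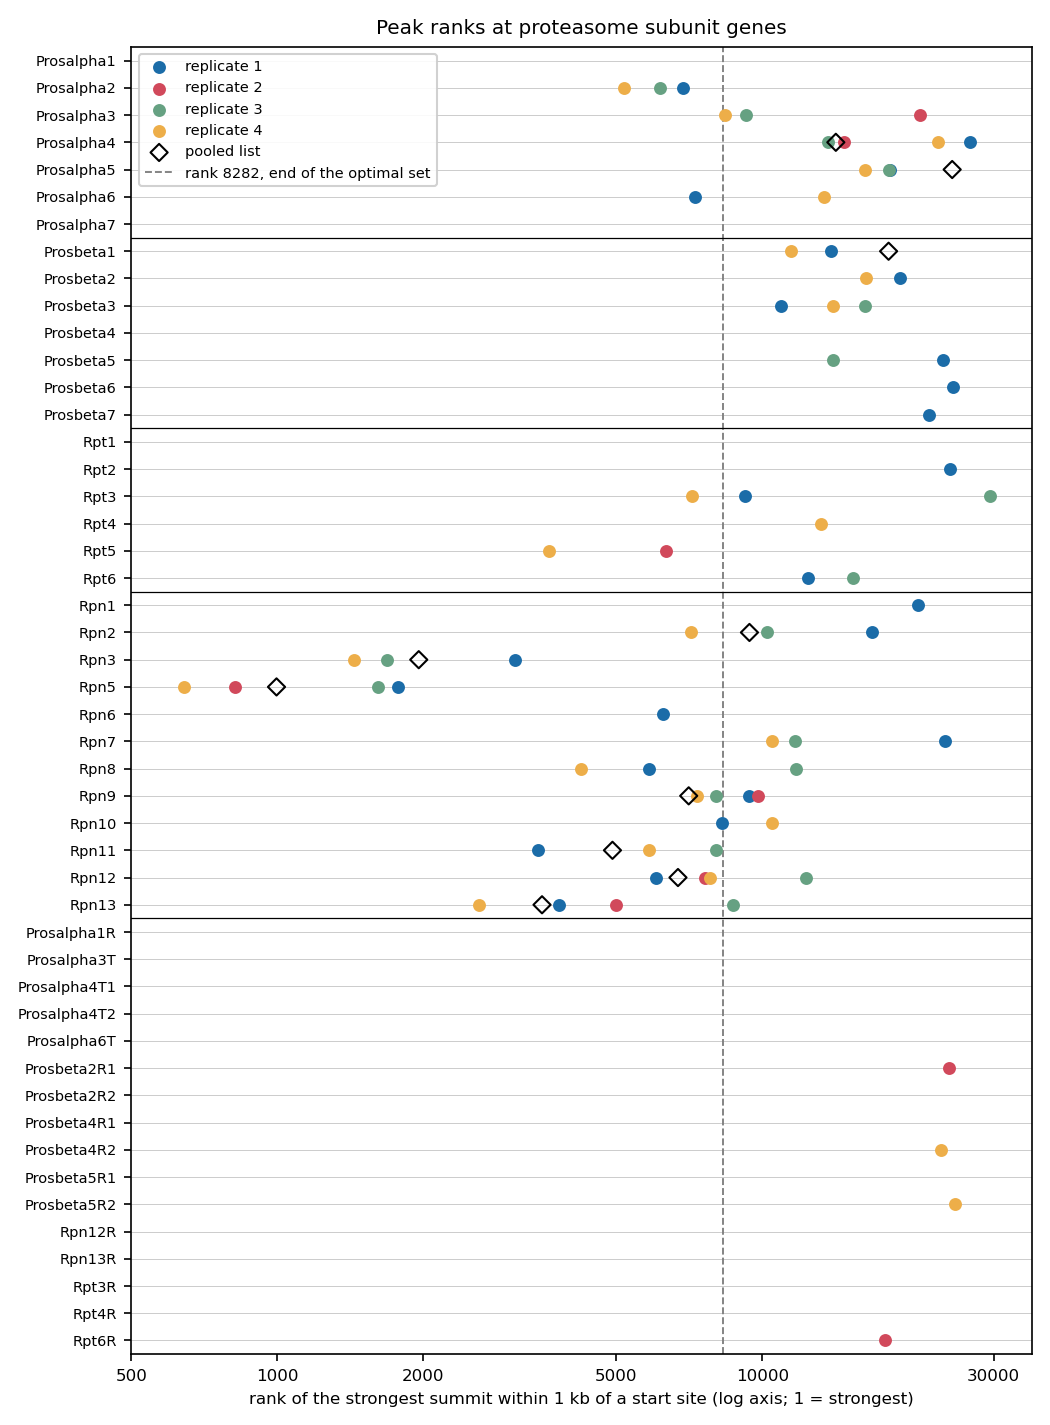
Rank of the strongest summit within 1 kb of a start site for each of the 48 members, on a log axis with the strongest peaks at the left. Circles are the 4 replicates, open diamonds the pooled list, and the dashed line is rank 8282, where the optimal set ends. Diamonds left of the line belong to Rpn genes, beta genes lie wholly to the right, and paralogues have 4 circles in all.

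The replicates spread widely at proteasome genes, where a set of 48 also varies more through counting alone than one of 13968. In their strong sets, replicates 1 to 4 had a summit at 20.8%, 8.33%, 10.4% and 22.9% of the 48 members (mean 15.6% ± 7.32, SD, n = 4), where all genes gave 25.2%, 21.1%, 24.5% and 26.9% (24.4% ± 2.44). For general subunits the shares were 31.2%, 12.5%, 15.6% and 34.4% (23.4% ± 11.0). Replicates 1 and 4 thus stood above the share of all genes for general subunits and replicates 2 and 3 below it, so their mean did not differ from that of all genes beyond the spread between replicates. Rpn genes gave 66.7%, 25.0%, 33.3% and 66.7% (47.9% ± 21.9), with the share of replicate 2 the nearest to that of all genes. Beta genes and paralogues gave 0 in each. Alpha genes averaged 14.3% ± 11.7 and Rpt genes 12.5% ± 16.0 (SD, n = 4 for both).

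Whole replicate lists include background. Of the 48 members 52.1%, 18.8%, 35.4% and 47.9% were listed in replicates 1 to 4, beside 48.9%, 40.3%, 47.4% and 48.8% of all genes. For general subunits the shares were 78.1%, 21.9%, 53.1% and 65.6% (54.7% ± 24.1), and for paralogues 0, 12.5%, 0 and 12.5%. The share of general subunits was thus above that of all genes in replicates 1, 3 and 4 and below it in replicate 2, with no test of the difference. Rpn genes went from 100% in replicate 1 to 33.3% in replicate 2, and beta genes from 85.7% to 0. Replicate 2 also had the lowest −log10 q at the same place in its list. The value at its peak of rank 8282 was 1.76, against 4.32, 3.74 and 3.37 in replicates 1, 3 and 4. In replicate 1 the value was the same 4.32 at members' peaks of ranks 1771 and 9408, so it does not follow peak strength there. Depth is unknown, so these values do not compare peak strength between lists. The part of the lower −log10 q in the members' absence from replicate 2 was not tested.

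**Figure D3:**
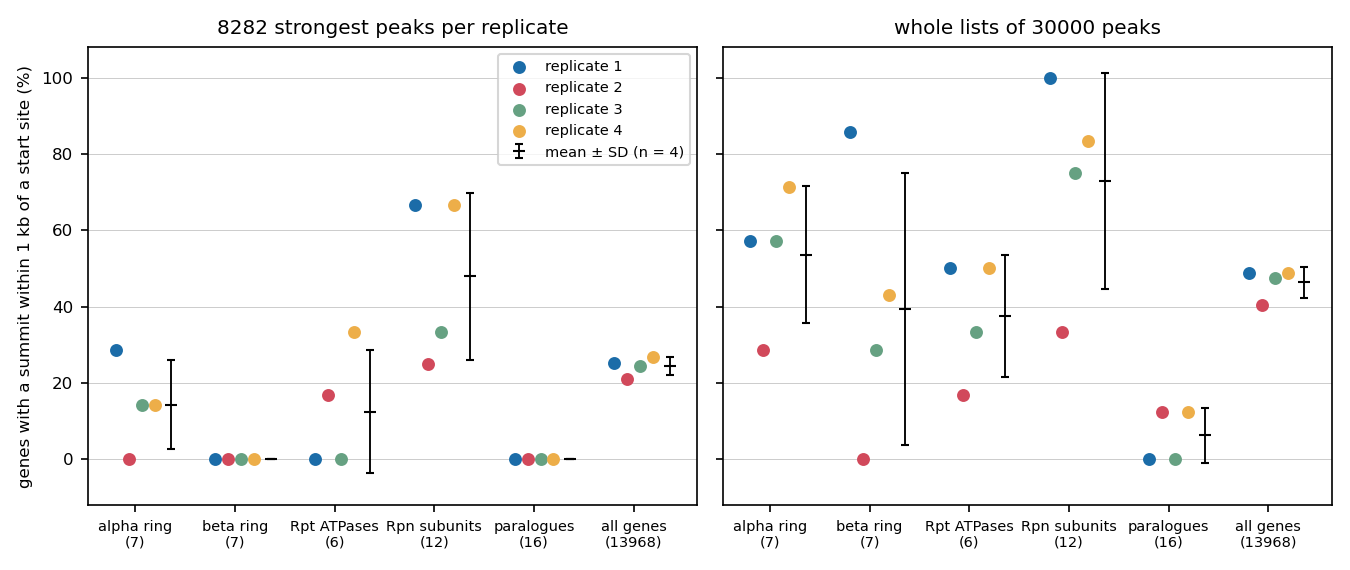
Percent of genes with a summit within 1 kb of a start site in each replicate, for the 4 modules of general subunits, the paralogues and all genes; left, the 8282 strongest peaks, right, whole lists of 30000. Colours are replicates and black bars the mean ± SD (n = 4), and the number of genes is under each set. Replicate 2 lies lowest for alpha, beta, Rpn and all genes in both panels or ties with other replicates at 0.

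Agreement between replicates selected a somewhat different set of members from the optimal list. At least 1 replicate had a strong summit at 14 members, all general, beside 34.7% of all genes. In 3 or 4 replicates this held for 6 members, namely Prosalpha2, Rpn3, Rpn5, Rpn11, Rpn12 and Rpn13, beside 20.8% of all genes. Prosalpha2 thus took the place that Rpn9 has in the optimal set. Of the 14, 7 had no summit even in the whole pooled list (Prosalpha2, Prosalpha6, Rpn6, Rpn8, Rpn10, Rpt3 and Rpt5), where 21.4% of the 4849 such genes had none. Over all genes, 308 were strong in replicates 1, 3 and 4 and not listed in replicate 2, and 42.2% of those had no pooled summit. Of the 2260 genes strong in the same replicates and listed in replicate 2, 3.05% had none. Prosalpha2, Rpn3 and Rpn11 were among the 308, and Prosalpha2 is the one of these without a pooled summit. Absence from the optimal set thus did not mean absence of a strong peak in single replicates, and why the pooled list lacks them was not tested.

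The counts moved with the rule that gives a summit to a gene. Within 500 bp the same 6 members were counted, beside 18.1% of all genes. Within 2 kb, or in the gene body or 2 kb upstream, Prosbeta6 made 7, with a summit 1104 bp away, beside 28.0% and 29.2%. With each summit given to its nearest start site, at any distance, there were also 7 members, beside 26.1% of genes. Rpn5 and Rpn9 were lost, and Rpn7, Prosbeta2 and the paralogue Prosbeta5R1 came in. The optimal summits nearest to Rpn7, Prosbeta2 and Prosbeta5R1 lay 6147, 5323 and 3638 bp from a start, so these are not promoter peaks. The 4141 strongest optimal peaks left Rpn3, Rpn5 and Rpn13, or 3 members, beside 13.5%. The whole pooled list gave 10 members, beside 38.4%, and optimal peaks met by a strong peak of each of the 4 replicates left Rpn5 alone, beside 14.2%.

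Matches to 9 motifs, on both strands, were counted in windows of 200 bp around the 7 optimal summits of the members, and on 3077 summits within 1 kb of any protein-coding start. The nuclear receptor half-site AGGTCA and the extended form TAGGTCA were in 0 of 7, beside 3.90% and 0.975% of all promoter summits. TATCGATA, the site of DREF, a factor known to act at housekeeping promoters in flies, was in 3 of 7, beside 3.44%. Those were the windows of Rpn3, Rpn12 and the farther Rpn11 summit. The shorter CGATA, which any TATCGATA contains, was in 5 of 7, beside 28.3%. The full matches lay toward the edges of the windows, as the printed Rpn11 and Rpn12 runs show: none was left in 100 bp windows, and 5 of 7 windows of 400 bp held one, beside 1.69% and 6.21%. GAGAG was in 1 of 7 (Rpn13), beside 25.1%, GGTCACAC, the core of the promoter element Motif 1, in 1 of 7 (Rpn9), beside 2.40%, and TATAAA in 3 of 7, beside 34.4%. CACGTG and TGACNNNGC, the latter a site type bound by cnc with Maf proteins, were in none, beside 2.08% and 5.00%. A match is a run of letters and not a shown site.

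In the promoters themselves, TATCGATA occurred at general subunits with and without a summit. From 250 bp before to 50 bp after the outermost start site, it was in 12 of 32 general subunits and 0 of 16 paralogues, beside 9.36% of all genes. These 12 were Prosalpha3, Prosalpha5, Prosalpha6, Prosbeta1, Prosbeta2, Prosbeta6, Rpn3, Rpn7, Rpn9, Rpn12, Rpn13 and Rpt5. Of the 6 genes with an optimal summit 4 held it, and of the 26 general subunits without one 8 did. It ended 9 bp before the start in Prosalpha6 and 3 bp before it in Prosbeta2. CGATA was in 27 of 32 general subunits and 8 of 16 paralogues, beside 47.3%, and covered all 7 alpha genes and 11 of 12 Rpn genes. GAGAG went the other way, with 3 general subunits and 6 paralogues, beside 29.7%. TGACNNNGC was in 5 general subunits (Prosalpha2, Prosbeta3, Rpn1, Rpn7 and Rpt6) and 1 paralogue, beside 8.62%, and none of those 5 had an optimal summit. GGTCACAC was likewise in 5 general subunits without an optimal summit, beside 7.69%. AGGTCA was in no general subunit and in 1 paralogue, Prosalpha6T, beside 5.88%. TATAAA was in 13 general subunits and 5 paralogues, beside 45.8%, CACGTG in no member, beside 4.20%, and TAGGTCA in no member, beside 1.40%.

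**Figure D4:**
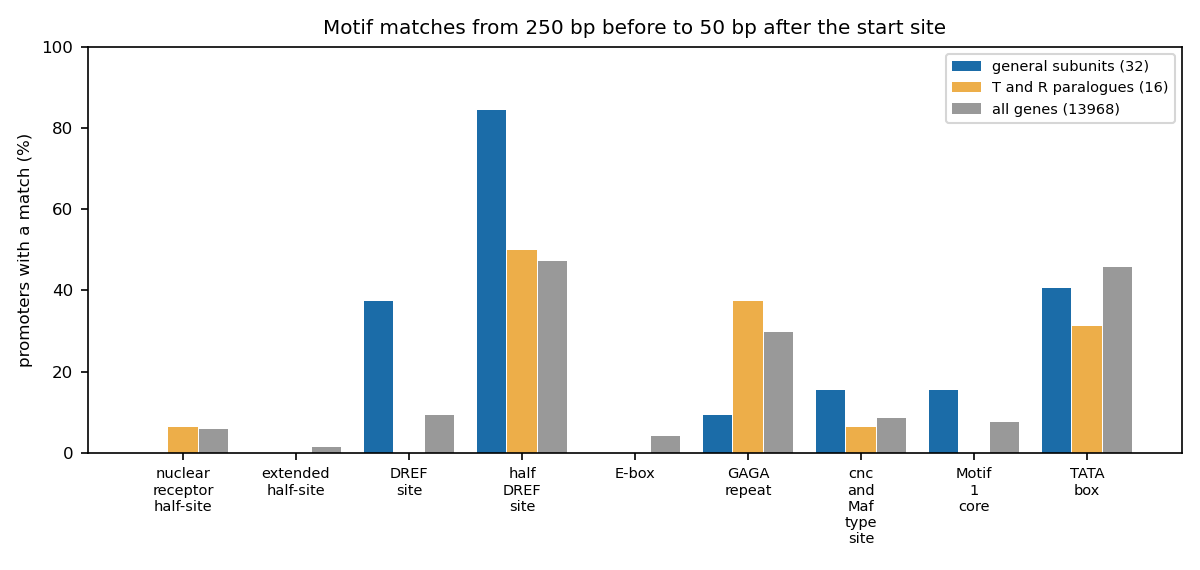
Percent of promoters, from 250 bp before to 50 bp after the outermost start site, that hold a match on either strand to each of 9 motifs. Bars are the 32 general subunits, the 16 paralogues and all 13968 genes. The DREF site is in 37.5% of general subunits, 0 of the paralogues and 9.36% of all genes.

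Genes that act with the proteasome had peaks at 7 of 28 (25.0%, exact 95% interval 10.7% to 44.9%), close to the 22.0% of all genes. Pomp, which encodes a chaperone of core assembly, ranked 2508 and was strong in every replicate (2123, 4737, 2417 and 2503). The gene cnc, which encodes the Nrf-type activator of proteasome genes, ranked 816, and Keap1, its inhibitor, ranked 185 with a summit at -861 bp that lay nearer to kuk. Uba1, the ubiquitin-activating enzyme, ranked 6592, but was outside the strong set in replicates 1 to 3 (10633, 9420 and 9791). The polyubiquitin gene Ubi-p63E ranked 3647. Faf2, a cofactor of the unfoldase p97, ranked 1805. The gene alien, which encodes subunit 2 of the lid-like COP9 signalosome, ranked 2828 with a summit at -154 bp that lay nearer to CG18661. In replicate 1 alien ranked 9304, outside the strong set. By list, optimal summits were at 1 of 6 assembly and regulator genes, 2 of 5 ubiquitin genes and 1 of 5 p97 genes. They were also at 2 of the 3 genes cnc, maf-S and Keap1, and at 1 of 9 signalosome genes. The signalosome, which resembles the lid in composition, thus had 1 gene with an optimal summit, beside 5 of 8 lid genes. That difference was not tested, and no conclusion is drawn from it because the lid grouping was made after the values were seen.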

How the data were processed

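Peak lists of 4 biological replicates, their pooled list and the optimal set were used on dm6. Per the file headers, the authors called each list on an alignment with a control alignment. Per the same headers they thresholded the optimal set from replicates 2, 3 and 4 and the pooled list, without the list of replicate 1. The sources used here do not name the aligner, peak caller or threshold. The deposited score (scale not stated) is the authors' and ranks peaks within 1 list. The deposited −log10 q sat at its ceiling of 4.26 for all optimal peaks.

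Members and gene lists were chosen with earlier results of these data known, so no list was tested. Every member is accounted for, with full values for those with an optimal summit and the pooled rank or its absence for the rest; related genes with an optimal summit are named (28 of 29 symbols matched, by symbol or RefSeq synonym). Coordinates count from 1, and a peak was placed by its summit. Start sites are those of protein-coding transcripts in Ensembl release 115 (BDGP 6.54) on the chromosome arms. When a gene had several summits the strongest was used. Motifs were matched on both strands of the dm6 genome of RefSeq; the promoter scan was added after the data were seen. Exact (Clopper-Pearson) 95% intervals, and the 3 counts that a count of 0 allows, cover counting error only, and depth is unknown. The spread over 4 replicates, which the labels call biological, is the error of ranks and shares. Summit assignment and motif matching were tested on simulated data. Python 3.11.15, pandas 2.3.3, numpy 2.4.6 and scipy 1.17.1 were used. One neighbouring gene is not reported here. Protein sequences were not analysed here, and the dm3 lists were not used here.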

Additional observations from a re-analysis of the deposited data

Results flagged for a closer look

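Of 26 sets of 4 replicate values examined for a replicate far from the others, 1 stood out. The strongest Prosalpha4 summit of replicate 1 lay at -737 bp, whereas those of replicates 2 to 4 lay at -336, -374 and -314 bp. Chance alone gives about 1 such set in 20. Replicate 1 also gave this gene its weakest rank, 26867 of 30000. Replicates 3 and 4 and the pooled list each held a second, lower-ranked Prosalpha4 summit, at -611, -581 and -692 bp, and replicate 2 held none. A summit farther from the start was therefore not particular to replicate 1.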

How the results depend on the processing

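Of 69 alternatives, 48 stayed near the main value (counts within 1.5 times, other values within the spread between replicates) and 21 moved further. General subunits changed sides of the all-gene share within 500 bp (18.8% against 18.1%, from 18.8% against 22.0%) and, as a mean over replicates (23.4% against 24.4%), without replicate 2 (27.1% against 25.5%), without replicate 3 (26.0% against 24.4%) and in whole lists (54.7% against 46.3%). In 100 bp windows TATCGATA, CGATA and TATAAA fell below the share of all promoter summits (0 against 1.69%, 14.3% against 14.6% and 14.3% against 19.8%). GAGAG, still at 1 of 7 summits, came to lie above it (14.3% against 11.7%, from 14.3% against 25.1%). The counts of 6 members and 6 general subunits became 3 in the 4141 strongest optimal peaks, 10 in the pooled list, 1 among peaks met by all 4 replicates and 0 where more than a 1 bp overlap was asked (0.5 of the peak), and 3 among peaks met by replicates 1, 3 and 4 (chosen after seeing the data). Giving summits to the nearest start, at any distance, raised the paralogue count from 0 to 1 (Prosbeta5R1, whose nearest optimal summit was 3638 bp away). Whole lists moved the mean replicate share from 15.6% to 38.5% for members and from 23.4% to 54.7% for general subunits, and lists of 4141 peaks to 5.73% and 8.59%. Leaving out each replicate gave 13.2% to 18.1% for members, 19.8% to 27.1% for general subunits, 46.9% to 65.6% for general subunits in whole lists (also chosen after seeing the data) and 4224 to 6183 for the median mean rank of 5399. The median position became -117 bp within 2 kb. Over 100 bp and 400 bp windows TATCGATA counts were 0 and 5 (3 over 200 bp); CGATA fell from 5 to 1 and TATAAA from 3 to 1 over 100 bp, and GAGAG rose from 1 to 2 over 400 bp. The cause was not tested, other than that shorter lists and windows hold less. No paired analysis was possible because all samples form 1 group. Lists of fixed length hold no depth, so a missing summit does not show missing binding.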
